A study of Mus musculus with 16 samples.

Results

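Immediate early genes and antiproliferative Btg genes were followed through light zone (LZ) and dark zone (DZ) germinal centre B cells of mice given an antibody to CD40 or an isotype antibody. The genes were chosen by symbol: Egr1, Egr3, Nr4a1, Fos, Junb, Jund, Ier2, Dusp2, Btg1 and Btg2. Of these 10 genes, 9 were among the 9443 genes of the deposited count table, and Btg1 was not analysed here. 7 of the 9 had enough counts to be tested among 6824 genes, and Egr3 and Fos did not.

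The groups were anti-CD40 LZ, isotype LZ, anti-CD40 DZ and isotype DZ, with 4 libraries each, all labelled 4 h. All cells were sorted germinal centre B cells from lymph nodes of mice labelled WT, so the groups differ only in antibody and zone as far as the labels go. The antibody dose, the strain and age of the mice, the immunization and the sorting gates are not given in the sources used here. The labels do not say whether the libraries of a group came from separate mice, so the p-values below measure the spread between these libraries, which may be technical.

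Immediate early genes are transcribed within minutes of a signal without new protein synthesis, and most of their transcripts are short-lived. In germinal centre B cells the antigen receptor and CD40, the receptor for the T cell ligand CD40L, both signal to such genes, and light zone cells are where antigen and T cell help are met. Egr1, Egr3 and Nr4a1 encode transcription factors used as readouts of antigen receptor signalling. Fos, Junb and Jund encode subunits of the AP-1 transcription factor, and Dusp2 encodes a nuclear phosphatase that dephosphorylates MAP kinases. Btg2, like its relative Btg1, encodes an antiproliferative protein that recruits the CCR4-NOT deadenylase to messenger RNA.

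The libraries held 493131 to 1473415 unique molecular identifiers (UMI, 1 per captured transcript), so that 1 UMI was worth 0.651 to 2.05 CPM, the unit of level used below (UMI brought to a common library size with TMM factors; summed markers use the library total alone). The biological coefficient of variation was 24.6%. Markers bore out the cell labels in part: 13 of 14 germinal centre B cell markers were in the table, with summed levels of 6602 to 7579 CPM in anti-CD40 LZ and 6756 to 9240 CPM in isotype LZ, and of 8551 to 9945 CPM in anti-CD40 DZ and 8443 to 10074 CPM in isotype DZ. The 7 LZ markers in the table, of 8, summed to 10339 to 12917 CPM in anti-CD40 LZ and 6227 to 8869 CPM in isotype LZ, and to 5860 to 8551 CPM in anti-CD40 DZ and 3353 to 4234 CPM in isotype DZ. The anti-CD40 DZ range thus reached into that of isotype LZ. The 8 DZ markers summed to 187 to 256 CPM in anti-CD40 LZ and 520 to 764 CPM in isotype LZ, and to 494 to 852 CPM in anti-CD40 DZ and 616 to 972 CPM in isotype DZ, so under isotype the zones overlapped on them. The 4 libraries numbered 4 stood apart from the other 12, with 2451 of the 6824 tested genes differing at an adjusted p under 0.05 by edgeR. Among the 7 tested genes of interest that was the case for 1, Jund, which was higher by 0.50 on the log2 scale in the libraries numbered 4 (adjusted p = 0.0248).

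Markers of other cells and stages were summed in the same way, and several lists moved with the groups. Of 10 T cell markers Lck alone was in the table, at 68.4 to 87.3 CPM in anti-CD40 LZ and 93.7 to 144 CPM in isotype LZ, and at 68.9 to 85.9 CPM in anti-CD40 DZ and 58.6 to 93.2 CPM in isotype DZ. Of 13 stromal and follicular dendritic cell markers 3 were in the table, Cr2, Pecam1 and Mfge8, summing to 46.6 to 56.8 CPM in anti-CD40 LZ and 93.1 to 224 CPM in isotype LZ, and to 40.6 to 67.4 CPM in anti-CD40 DZ and 46.6 to 82.8 CPM in isotype DZ. Cr2 is also in the naive and memory B cell list below, and Mfge8 ran from 4.77 to 99.4 CPM among isotype LZ libraries. Of 15 myeloid and dendritic cell markers 2 were in the table, Lyz2 and Flt3, summing to 68.4 to 114 CPM in anti-CD40 LZ and 79.4 to 151 CPM in isotype LZ, and to 163 to 197 CPM in anti-CD40 DZ and 134 to 168 CPM in isotype DZ. Of 9 naive and memory B cell markers 8 were in the table, summing to 1553 to 1696 CPM in anti-CD40 LZ and 652 to 766 CPM in isotype LZ, and to 599 to 845 CPM in anti-CD40 DZ and 208 to 287 CPM in isotype DZ. The 4 plasma cell markers in the table, of 6, summed to 662 to 840.5 CPM in anti-CD40 LZ and 358 to 978 CPM in isotype LZ, and to 615 to 1213 CPM in anti-CD40 DZ and 422 to 961 CPM in isotype DZ. These sums hide opposite moves in the LZ. Mean levels in anti-CD40 and isotype LZ were 396 and 46.2 CPM for Irf4 and 5.44 and 4.08 CPM for Sdc1. They were 287 and 433 CPM for Jchain and 104 and 146 CPM for Xbp1. Red cell and platelet markers were not analysed here. The part of other cells in the results below was not tested.

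The sequence upstream of the start of 6 of the 9 genes was taken from RefSeq (GRCm38.p6): Btg2, Dusp2, Fos, Junb, Jund and Nr4a1. Shown are those of the 4 genes among these 6 that passed an adjusted p under 0.05 by edgeR after anti-CD40 in either zone. Each has 250 bases, 5′ to 3′ on the strand of the gene. Egr1, which passed in the LZ as well, is not among the 6. Capitals mark matches on either strand to the cAMP response element (TGACGTCA), the Egr site (GCGNGGGCG) and the E-box (CACGTG). The AP-1 site (TGANTCA), the CArG box and the NF-kB site were searched as well, and no matches overlapped.
Junb, chr8:84978749-84978998, minus strand: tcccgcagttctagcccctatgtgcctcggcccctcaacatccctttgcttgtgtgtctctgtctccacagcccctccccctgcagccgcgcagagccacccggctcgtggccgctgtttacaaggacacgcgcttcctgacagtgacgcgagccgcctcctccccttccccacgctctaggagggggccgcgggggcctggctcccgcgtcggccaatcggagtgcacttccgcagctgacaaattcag
Dusp2, chr2:127335909-127336158, plus strand: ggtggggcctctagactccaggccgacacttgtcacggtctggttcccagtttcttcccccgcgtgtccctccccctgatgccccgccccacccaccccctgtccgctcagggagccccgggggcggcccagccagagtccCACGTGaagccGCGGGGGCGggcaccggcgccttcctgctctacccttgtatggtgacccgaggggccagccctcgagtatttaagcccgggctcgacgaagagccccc
Nr4a1, chr15:101266596-101266845, plus strand: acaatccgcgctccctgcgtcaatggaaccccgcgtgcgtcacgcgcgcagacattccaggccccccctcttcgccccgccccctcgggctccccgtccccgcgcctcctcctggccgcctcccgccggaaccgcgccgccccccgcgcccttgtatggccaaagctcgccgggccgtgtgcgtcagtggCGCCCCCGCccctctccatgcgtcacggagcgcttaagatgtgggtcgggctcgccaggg
Btg2, chr1:134079156-134079405, minus strand: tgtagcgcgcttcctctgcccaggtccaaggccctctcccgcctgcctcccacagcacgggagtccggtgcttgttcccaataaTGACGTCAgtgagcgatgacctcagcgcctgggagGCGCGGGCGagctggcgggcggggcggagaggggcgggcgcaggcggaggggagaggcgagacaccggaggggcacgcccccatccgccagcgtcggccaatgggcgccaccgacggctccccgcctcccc
The Btg2 window held a cAMP response element 166 to 159 bases before the start and an Egr site 131 to 123 bases before it. An Egr site lay 98 to 90 bases before the start of Dusp2, beside an E-box at 109 to 104 bases. The Nr4a1 window lies before a transcript start inside the annotated gene and not before its outermost start. There the Egr site, read on the minus strand, lay 60 to 52 bases before the start. The Junb window held none of the 6 motifs, nor did that of Jund, and that of Fos held an NF-kB site. The Jund window lies before the RefSeq start at chr8:70697739, which is upstream of the GENCODE start at 70698949. An Egr site was present in 3 of the 6 windows, against 4.7% of 32851 RefSeq windows of the same kind. The cAMP response element was in 1 of the 6 and in 1.55% of all windows, the E-box in 1 of the 6 and in 6.02%, and the NF-kB site in 1 of the 6 and in 3.9%. No window of the 6 held an AP-1 site or a CArG box, which 6.75% and 1.47% of all windows hold. These matches are of letters within 250 bases and say nothing of whether a factor binds.

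After anti-CD40 the genes did not move together. In the LZ, Junb and Dusp2 rose while Btg2, Egr1 and Nr4a1 fell, and in the DZ Junb and Dusp2 rose. By edgeR's quasi-likelihood test with Benjamini-Hochberg adjustment over all tested genes, 5 of 7 passed an adjusted p under 0.05 in the LZ, 2 higher and 3 lower, where 19.1% of all tested genes did (10.8% higher and 8.24% lower). In the DZ 2 of 7 passed, both higher, where 2.39% of all tested genes did (2.24% higher and 0.147% lower). The median log2 fold change of the 7 was 0.33 in the LZ and 0.27 in the DZ, beside 0.01 and -0.01 over all tested genes. Of the 7 genes, 4 had no overlap between the anti-CD40 and isotype libraries of the LZ, 2 higher and 2 lower, as 20.5% of all tested genes did (11.4% higher and 9.03% lower). In the DZ it was 3, 2 higher and 1 lower, against 7.36% of all tested genes (4.95% higher and 2.4% lower). The called count in the LZ was 3 without the libraries numbered 4, where Nr4a1 had too few counts to be tested. It was 3 of 7 without isotype LZ library 1 or 3 or anti-CD40 LZ library 1. In the DZ it was 1 of 7 without isotype DZ library 1 or 3 or anti-CD40 DZ library 2 or 3, and 3 without the libraries numbered 4.

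**Figure D1:**
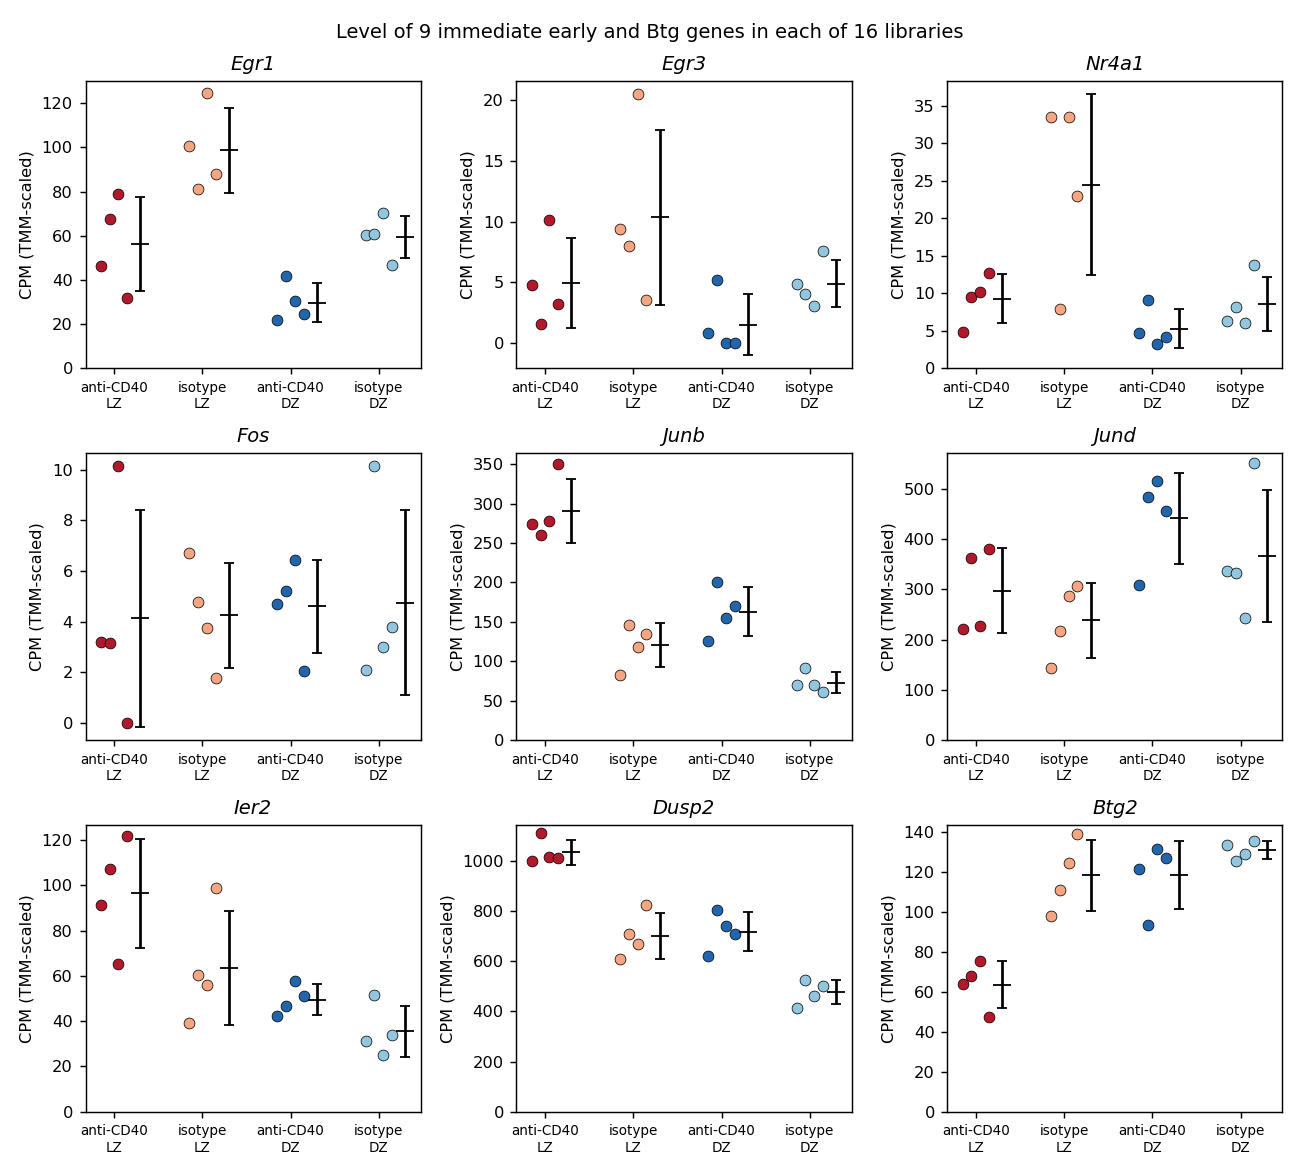
Level of the 9 genes in each of 16 libraries, in TMM-scaled CPM, with 4 libraries per group in the order anti-CD40 LZ, isotype LZ, anti-CD40 DZ and isotype DZ; bars give the mean and SD. The 4 anti-CD40 LZ libraries sit above every isotype LZ library for Junb and Dusp2 and below every one for Egr1 and Btg2.

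Of the AP-1 subunits, Junb (chr8:84974484-84978718, GENCODE vM21 on GRCm38, minus strand) changed most. In the LZ it was at 274, 260.2, 278 and 349.9 CPM in the 4 anti-CD40 libraries, against 82.0, 146, 117 and 134 CPM in the 4 isotype libraries. DZ cells held 126, 200.5, 154 and 170.0 CPM in the anti-CD40 libraries, against 69.9, 91.2, 70.1 and 60.3 CPM in the isotype libraries. In both zones the lowest anti-CD40 library stood above the highest isotype library. This made a log2 fold change of 1.28 in the LZ (SE 0.20, adjusted p = 1.89e-04) and 1.16 in the DZ (SE 0.20, adjusted p = 0.00197). A higher level in such bulk samples can mean more cells with the transcript or more transcript in each, which cannot be told apart. Junb passed in both zones under each of the 25 alternatives tried per zone, with adjusted p-values up to 0.00199 in the LZ and 0.0132 in the DZ. Its annotated 3′ end overlaps that of Prdx2 on the opposite strand (chr8:84969587-84974834), while the RefSeq model of Junb starts at 84976909 and does not reach it. Whether the counting used strand is not given in the sources used here. Prdx2, which encodes a peroxiredoxin, had log2 fold changes of 0.11 in the LZ (SE 0.17, adjusted p = 0.720) and -0.05 in the DZ (SE 0.17, adjusted p = 0.979).

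Jund (chr8:70698949-70700616), the AP-1 subunit usually present without stimulation, showed no such separation. It was at 221, 363, 228 and 379.9 CPM in anti-CD40 LZ libraries, against 142, 216, 287 and 307 CPM in isotype LZ libraries. In the DZ the anti-CD40 libraries held 309.5, 484, 516 and 457 CPM, against 338, 333, 242 and 552 CPM in the isotype libraries. The groups overlapped in both zones. On the log2 scale the fold change was 0.33 in the LZ (95% interval -0.24 to 0.90, adjusted p = 0.467) and 0.27 in the DZ (95% interval -0.28 to 0.82, adjusted p = 0.880). Both intervals reach from a lower to a higher level. An antisense gene on the opposite strand of Jund, Gm11175, was not analysed here.

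Fos (chr12:85473890-85477273), the classic partner of the Jun proteins, was near the limit of the counts. Its UMI were 2, 2, 9 and 0 in anti-CD40 LZ libraries, against 5, 3, 2 and 1 in isotype LZ libraries. In the DZ they were 6, 8, 4 and 1 in the anti-CD40 libraries, against 3, 10, 3 and 3 in the isotype libraries. The summed UMI were thus 13 with anti-CD40 and 11 with isotype in the LZ, and 19 with either antibody in the DZ. Fitted without a filter on low counts, Fos had a log2 fold change of 0.04 in the LZ (SE 0.72, adjusted p = 0.981) and 0.05 in the DZ (SE 0.61, adjusted p = 0.997), and a difference was not detectable at this depth. The 0 in anti-CD40 LZ library 4 allows a level of up to 4.75 CPM, which covers counting error only.

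Ier2 (chr8:84661331-84662852, minus strand), an immediate early gene for a nuclear protein that acts in transcription, was at 91.4, 107, 65.4 and 122 CPM in anti-CD40 LZ libraries, against 39.0, 60.5, 55.9 and 98.8 CPM in isotype LZ libraries. Its DZ levels were 42.2, 46.9, 57.9 and 51.2 CPM in anti-CD40 libraries, against 31.1, 51.7, 25.0 and 33.9 CPM in isotype libraries. Its means were higher with anti-CD40 in both zones, but the groups overlapped. Its log2 fold changes were 0.60 in the LZ (SE 0.28, adjusted p = 0.141) and 0.47 in the DZ (SE 0.29, adjusted p = 0.647). Isotype LZ library 4 was the high one of its group, and without it the LZ value was 0.90 (adjusted p = 0.0277). Without isotype LZ library 1, the low one, it was 0.37 (adjusted p = 0.428).

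Dusp2 (chr2:127336159-127338376), the MAP kinase phosphatase, rose in both zones. In the LZ it was at 1001, 1110.2, 1016 and 1012 CPM in anti-CD40 libraries, against 607, 708, 669 and 825 CPM in isotype libraries. The DZ levels were 621, 804, 740.0 and 709 CPM in anti-CD40 libraries, against 415, 527, 463 and 500.3 CPM in isotype libraries. The groups did not overlap in either zone. The log2 fold change was 0.56 in the LZ (SE 0.14, adjusted p = 0.00705) and 0.59 in the DZ (SE 0.14, adjusted p = 0.0183). The LZ call held under each of 25 alternatives. The DZ call was lost without isotype DZ library 1 or 3 or anti-CD40 DZ library 2 or 3, with adjusted p-values of 0.0573 to 0.104, while the log2 fold change stayed at 0.53 or more.

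Egr1 (chr18:34859823-34864984), a zinc finger transcription factor induced through the antigen receptor, moved the other way. In the LZ it was at 46.5, 67.8, 78.9 and 31.7 CPM in anti-CD40 libraries, against 101, 81.2, 125 and 88.2 CPM in isotype libraries. DZ cells held 21.9, 41.7, 30.6 and 24.6 CPM in anti-CD40 libraries, against 60.2, 60.8, 70.1 and 46.5 CPM in isotype libraries. In both zones every anti-CD40 library was below every isotype library, as was the case for 9.03% of the tested LZ genes and 2.4% of those in the DZ. The fall came to a log2 fold change of -0.79 in the LZ (SE 0.27, adjusted p = 0.0420) and -0.97 in the DZ (SE 0.27, adjusted p = 0.0754), so Egr1 passed in the LZ and missed the threshold in the DZ. The LZ call was lost without isotype LZ library 1 or 3, anti-CD40 LZ library 1 or 4 or isotype DZ library 1 or 2, with adjusted p-values of 0.0531 to 0.132. Without the libraries numbered 4 the adjusted p was 0.0745 in the LZ and 0.0354 in the DZ. By DESeq2 on the same counts Egr1 passed in the DZ (-0.99, adjusted p = 0.0263). In the authors' deposited table Egr1 had a log2 fold change of -0.99 in the DZ with an adjusted p of 0.0379.

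Nr4a1 (chr15:101254269-101274795), the nuclear receptor also called Nur77, was sparse. It had 3, 6, 9 and 8 UMI in anti-CD40 LZ libraries, against 25, 5, 18 and 13 UMI in isotype LZ libraries, which made 4.81, 9.46, 10.1 and 12.7 CPM in the anti-CD40 and 33.6, 7.96, 33.6 and 22.9 CPM in the isotype libraries. In the DZ it had 6, 14, 2 and 2 UMI in anti-CD40 libraries, against 9, 8, 6 and 11 UMI in isotype libraries. Isotype LZ library 2 lay among the anti-CD40 libraries, so the LZ groups overlapped. Fitted log2 fold changes were -1.38 in the LZ (SE 0.45, adjusted p = 0.0379) and -0.49 in the DZ (SE 0.50, adjusted p = 0.890). The LZ call was lost without isotype LZ library 1 or 3 or without anti-CD40 LZ library 1, 2 or 3 (adjusted p of 0.0672 to 0.108), and by limma-voom (adjusted p = 0.102).

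Egr3 (chr14:70077203-70082614), a close relative of Egr1, had 3, 1, 9 and 2 UMI in anti-CD40 LZ libraries, against 7, 5, 11 and 2 UMI in isotype LZ libraries. Its UMI in the DZ were 1, 8, 0 and 0 UMI in anti-CD40 libraries, against 7, 4, 3 and 6 UMI in isotype libraries. The sums were 15 UMI with anti-CD40 and 25 UMI with isotype in the LZ, and 9 UMI with anti-CD40 and 20 UMI with isotype in the DZ, with overlapping libraries in both zones. In the unfiltered fit the log2 fold change was -0.94 in the LZ (SE 0.65, adjusted p = 0.388) and -1.11 in the DZ (SE 0.74, adjusted p = 0.762). Neither difference was detectable at this depth.

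Btg2 (chr1:134075170-134079120, minus strand) fell in the LZ. It was at 64.1, 67.8, 75.5 and 47.5 CPM in anti-CD40 LZ libraries, against 98.1, 111, 125 and 139 CPM in isotype LZ libraries. In the DZ it was at 122, 93.7, 132 and 127 CPM in anti-CD40 libraries, against 134, 126, 129 and 136 CPM in isotype libraries. The anti-CD40 LZ libraries were the lowest of all 16, and the other 3 groups overlapped in part. Its log2 fold change was -0.88 in the LZ (SE 0.18, adjusted p = 0.00236) and -0.15 in the DZ (SE 0.17, adjusted p = 0.904, 95% interval -0.51 to 0.21). The LZ call held under each of 25 alternatives, with adjusted p-values up to 0.0221, the highest being without the libraries numbered 4.

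**Figure D2:**
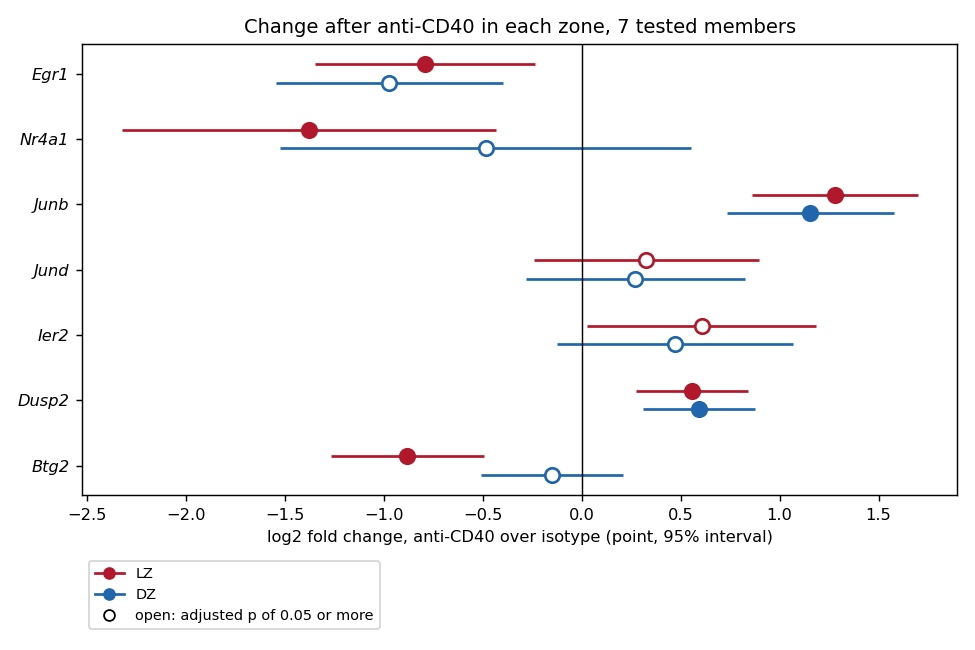
The log2 fold change of anti-CD40 over isotype in the LZ and the DZ for the 7 tested genes, with 95% intervals; filled points have an edgeR adjusted p under 0.05. Junb and Dusp2 lie to the right in both zones, Egr1 to the left in both, and Btg2 lies at -0.88 in the LZ and -0.15 in the DZ.

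Whether the anti-CD40 change differed between zones was tested with an interaction term. By edgeR 0 of 7 genes passed, where 0.0147% of all tested genes did, and DESeq2 and limma-voom gave 0 of 7 as well. At an unadjusted p under 0.05 there was 1, Btg2, whose change was lower in the LZ than in the DZ by 0.73 on the log2 scale (SE 0.25, 95% interval -1.26 to -0.20, unadjusted p = 0.00912, adjusted p = 0.381). The fall of Btg2 in the LZ was therefore not shown to be particular to that zone. For Junb the difference was 0.12 (95% interval -0.47 to 0.72), for Dusp2 -0.04 (-0.43 to 0.36) and for Egr1 0.18 (-0.61 to 0.97). The interval of Nr4a1 was the widest, at -2.32 to 0.53.

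The zones were also compared within each antibody. After anti-CD40, Junb, Dusp2, Ier2 and Egr1 were higher in LZ than in DZ cells and Btg2 was lower. These made 5 of 7 genes, where 11.5% of all tested genes passed (6.14% higher and 5.38% lower). The log2 fold change of LZ over DZ was 0.84 for Junb (SE 0.19, adjusted p = 0.00748), 0.53 for Dusp2 (SE 0.14, adjusted p = 0.0147) and 0.97 for Ier2 (SE 0.28, adjusted p = 0.0269), each with no overlap between zones. Egr1 was at 0.90 (SE 0.28, adjusted p = 0.0426) with overlapping libraries. Btg2 was at -0.88 (SE 0.18, adjusted p = 0.00336) with no overlap. No overlap between zones was thus seen for 4 of 7 genes, 3 higher and 1 lower, and for 16.2% of all tested genes (8.59% higher and 7.62% lower). The Junb and Btg2 calls held under each of 25 alternatives. The call for Dusp2 was lost without anti-CD40 LZ library 1 or 2 or anti-CD40 DZ library 1, 3 or 4 (adjusted p up to 0.104), that for Ier2 without anti-CD40 LZ library 1, 2 or 4 or any anti-CD40 DZ library (up to 0.105), and that for Egr1 without 12 of the 16 libraries, all but isotype LZ library 2 or 4, anti-CD40 LZ library 4 and anti-CD40 DZ library 2 (up to 0.161).

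Under isotype 1 of 7 genes passed between zones, Dusp2, where 2.23% of all tested genes did (1.29% higher and 0.938% lower). Its log2 fold change of LZ over DZ was 0.56 (SE 0.14, adjusted p = 0.0323), and the call was lost without any of 10 libraries, namely isotype LZ library 2, 3 or 4, any isotype DZ library, anti-CD40 LZ library 1 or 2 or anti-CD40 DZ library 3, with adjusted p-values of 0.0511 to 0.136. Nr4a1, at 1.56 (SE 0.43, adjusted p = 0.0722), Junb, at 0.71 (SE 0.21, adjusted p = 0.0828), Ier2, at 0.83 (SE 0.29, adjusted p = 0.177), and Egr1, at 0.73 (SE 0.26, adjusted p = 0.206), missed the threshold. Leaving out isotype LZ library 1 let Junb pass (0.87, adjusted p = 0.0351). Nr4a1 passed once isotype LZ library 2 or isotype DZ library 4 was left out (adjusted p = 0.0256 and 0.0434). Jund had values of -0.57 after anti-CD40 and -0.62 under isotype, with its means higher in DZ cells and adjusted p-values of 0.196 and 0.339. Btg2 was at -0.15 (95% interval -0.51 to 0.21, adjusted p = 0.823). Dusp2 and Egr1, 2 of 7 genes, were higher in LZ cells with no overlap between zones, as 8.18% of all tested genes had none (4.32% higher and 3.85% lower). The comparisons of zones and of antibodies share libraries, so their values are set side by side and not counted as separate evidence.

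**Figure D3:**
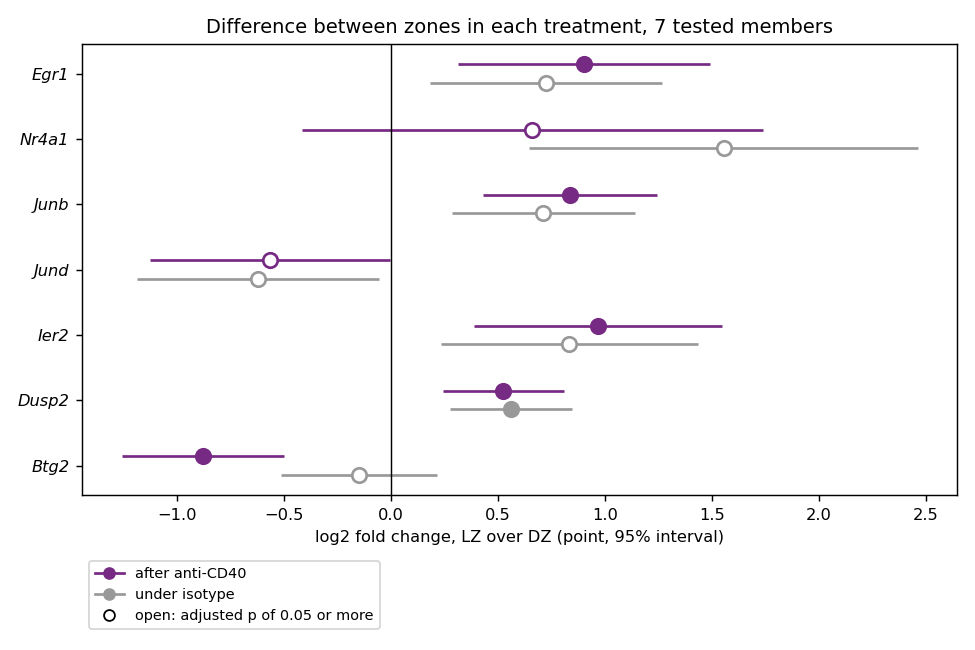
The log2 fold change of LZ over DZ after anti-CD40 and under isotype for the 7 tested genes, with 95% intervals; filled points have an edgeR adjusted p under 0.05. Btg2 lies at -0.88 after anti-CD40 and at -0.15 under isotype, and Nr4a1, with wide intervals, at 0.66 after anti-CD40 and 1.56 under isotype.

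The order of the groups by mean level therefore differed between genes. For Junb and Dusp2 it was anti-CD40 LZ, anti-CD40 DZ, isotype LZ and isotype DZ from high to low, and anti-CD40 DZ overlapped isotype LZ for both genes. Dusp2 averaged 718 ± 76.5 CPM in anti-CD40 DZ, beside 703 ± 91.8 CPM in isotype LZ (SD, n = 4 each). For Egr1 and Nr4a1 it was isotype LZ, isotype DZ or anti-CD40 LZ, and anti-CD40 DZ last. Egr1 averaged 56.2 ± 21.2 CPM in anti-CD40 LZ, beside 59.4 ± 9.71 CPM in isotype DZ (SD, n = 4 each), and these groups overlapped. For Btg2 it was isotype DZ, anti-CD40 DZ, isotype LZ and anti-CD40 LZ, and among neighbours only the step to anti-CD40 LZ was without overlap. For Ier2 every neighbouring pair in the order anti-CD40 LZ, isotype LZ, anti-CD40 DZ and isotype DZ overlapped, and for Jund, whose order was anti-CD40 DZ, isotype DZ, anti-CD40 LZ and isotype LZ, so did every neighbouring pair.

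Ratios within a library do not depend on its depth or scaling. They were chosen after the levels were seen and are given as a description with no test, on UMI and not per length. The ratio of Junb to Btg2 UMI was 3.69 to 7.37 in the 4 anti-CD40 LZ libraries and 0.836 to 1.31 in the 4 isotype LZ libraries, and 1.03 to 2.14 in anti-CD40 DZ and 0.444 to 0.726 in isotype DZ libraries. The ratio of Junb to Jund was 0.717 to 1.24 in anti-CD40 LZ and 0.409 to 0.676 in isotype LZ, and 0.299 to 0.415 in anti-CD40 DZ and 0.109 to 0.289 in isotype DZ. The ratio of Dusp2 to Egr1 was 12.9 to 32.0 in anti-CD40 LZ and 5.36 to 9.36 in isotype LZ, and 19.3 to 28.8 in anti-CD40 DZ and 6.60 to 10.8 in isotype DZ. All 3 ratios were thus higher in every anti-CD40 library than in every isotype library of the same zone.

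**Figure D4:**
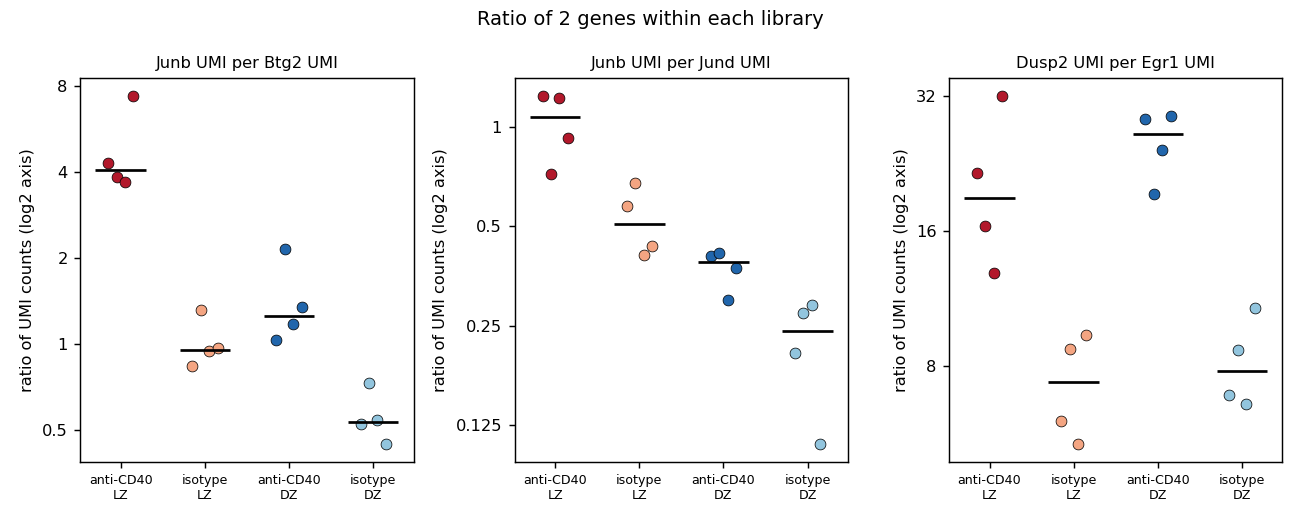
Ratios of UMI within each of 16 libraries, Junb to Btg2, Junb to Jund and Dusp2 to Egr1, on log axes, with the median of each group of 4. In each zone the anti-CD40 libraries lie above the isotype libraries of that zone, with medians of 4.06 against 0.951 for Junb to Btg2 in the LZ and 1.25 against 0.533 in the DZ.

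The shape of each gene over the 16 libraries was compared with that of 5417 other genes. These had a mean of 20 CPM or more over the 16 libraries. The measure was the root mean square (RMS) difference of log2 CPM after subtracting each gene's mean. The gene nearest to Btg2 was Mtmr3, which encodes a phosphoinositide phosphatase, at 0.122, where the median over all candidates was 0.603. Brpf3, for a bromodomain protein, followed at 0.190. Nearest to Dusp2 were Fmnl3, for a formin, at 0.140, and 2310061I04Rik at 0.171 (median 0.578). Nearest to Junb were Zfp362, for a zinc finger protein, at 0.252, and Mrto4, for a ribosome assembly factor, at 0.254 (median 0.846). Entpd6, at 0.231, and Syngr2, at 0.288, were nearest to Ier2 (median 0.726). No gene came as near to Egr1 or Nr4a1. Ccnf, for a cyclin, stood at 0.421 and Gmip at 0.422 from Egr1 (median 0.814). Chtf18 stood at 0.470 and Abca2 at 0.504 from Nr4a1 (median 0.911). The measure depends on a gene's own spread and counting error as well as on its shape. About its own mean the RMS was 0.682 for Egr1 and 0.797 for Nr4a1. It was 0.416 for Dusp2, 0.445 for Btg2, 0.610 for Ier2 and 0.752 for Junb. Among the genes of interest the nearest pairs were Ier2 with Dusp2 (0.312), Junb with Dusp2 (0.385) and Junb with Ier2 (0.426), Egr1 and Nr4a1 stood 0.575 apart, and Junb and Nr4a1, at 1.19, were the farthest pair.

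Genes of the same pathways were read from 6 lists. Among AP-1 and ATF partners 6 of 12 were in the table and 4 were tested. Batf, for the partner with which Jun proteins bind composite sites in lymphocytes, rose in both zones after anti-CD40, with log2 fold changes of 1.96 in the LZ (SE 0.26, adjusted p = 4.30e-05) and 1.78 in the DZ (SE 0.27, adjusted p = 5.87e-04). Atf4, for a stress-response factor, rose in the LZ (0.65, SE 0.16, adjusted p = 0.00884). The list had 2 of 4 genes higher in the LZ, where 10.8% of all tested genes were, and 1 of 4 in the DZ, where 2.24% were. Its medians were 0.88 for LZ and 0.50 for DZ cells, beside 0.01 and -0.01 over all tested genes. Batf was also higher in LZ than in DZ cells, at 1.61 after anti-CD40 (SE 0.25, adjusted p = 4.00e-04) and 1.43 under isotype (SE 0.28, adjusted p = 0.00798).

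Of 30 other immediate early genes 25 were in the table and 15 were tested. In the LZ 6 rose and 3 fell, where 10.8% of all tested genes rose and 8.24% fell. In the DZ 4 rose, where 2.24% of all tested genes did. Myc, for the growth-promoting transcription factor, rose by 3.05 in the LZ (SE 0.30, adjusted p = 2.23e-06) and 2.26 in the DZ (SE 0.30, adjusted p = 1.10e-04) on the log2 scale. Plk3, for a stress-responsive kinase, rose by 1.25 in the LZ (SE 0.30, adjusted p = 0.00669) and 1.41 in the DZ (SE 0.34, adjusted p = 0.0254). Nfkbiz, for a nuclear regulator of NF-kB, rose in the LZ (1.72, SE 0.39, adjusted p = 0.00401). Ier3 and Cd69 rose in both zones. Ier3 was at 2.12 in the LZ (SE 0.53, adjusted p = 0.00901) and 3.30 in the DZ (SE 0.63, adjusted p = 0.00438). Cd69 was at 1.52 in the LZ (SE 0.48, adjusted p = 0.0305) and 1.98 in the DZ (SE 0.51, adjusted p = 0.0463). Klf2, for a quiescence and migration factor, fell in the LZ (-2.75, SE 0.40, adjusted p = 9.60e-05). The medians of the 15 were 0.44 and 0.24, LZ before DZ. The list thus held changes both ways in the LZ, as the genes of interest did.

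For the signalling above these genes and for the partners of Btg2, the LZ counts are to be read against the 19.1% of all tested genes that passed in either direction. Of 19 tested genes of the MAP kinase cascade that leads to immediate early genes, 1 rose in the LZ, Map2k1, the kinase above ERK (1.0, SE 0.32, adjusted p = 0.0346). By edgeR 0 of 19 passed in the DZ, where 1 had an unadjusted p under 0.05, and the medians were 0.06 and 0.11. Of 6 tested genes that feed back on MAP kinases or Egr proteins, 1 fell in the LZ, Nab2, for a corepressor of Egr proteins that Egr factors induce (-1.31, SE 0.34, adjusted p = 0.0112). Of 16 tested genes of the BTG and Tob family and the CCR4-NOT deadenylase, Prmt1, for an arginine methyltransferase that binds BTG proteins, rose in the LZ (0.85, SE 0.19, adjusted p = 0.00369). Pabpc4, for a poly(A)-binding protein, rose as well (1.04, SE 0.28, adjusted p = 0.0118), and Pan3, for a subunit of another deadenylase, fell (-1.30, SE 0.37, adjusted p = 0.0188). In the DZ 0 of the 16 passed by edgeR and 0 had an unadjusted p under 0.05, and the medians were 0.01 and -0.01.

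Heat shock and dissociation genes, which immediate early genes often accompany when cells are handled, were counted beside them. Of 12 tested, 5 were higher and 1 lower in the LZ, where 10.8% of all tested genes were higher and 8.24% lower. Higher by edgeR were Hspd1 at 1.45 (SE 0.23, adjusted p = 2.18e-04) and Hspe1 at 0.82 (SE 0.19, adjusted p = 0.00601). So were Hspa8 at 0.45 (SE 0.14, adjusted p = 0.0327), Gadd45b at 0.61 (SE 0.21, adjusted p = 0.0446) and Hsp90ab1 at 0.69 (SE 0.23, adjusted p = 0.0468). Gadd45a was lower, at -0.97 (SE 0.31, adjusted p = 0.0332). Hspd1 and Hspe1 encode mitochondrial chaperones. In the DZ, where 2.24% of all tested genes were higher and 0.147% lower, Hspd1 was higher (0.98, SE 0.23, adjusted p = 0.0221) and Dnajb1, a heat shock gene, was lower (-0.87, SE 0.22, adjusted p = 0.0356). The medians of the list were 0.61 for LZ and 0.15 for DZ cells. The part of handling in the changes of Junb, Dusp2, Egr1, Nr4a1 and Btg2 was not tested.

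**Figure D5:**
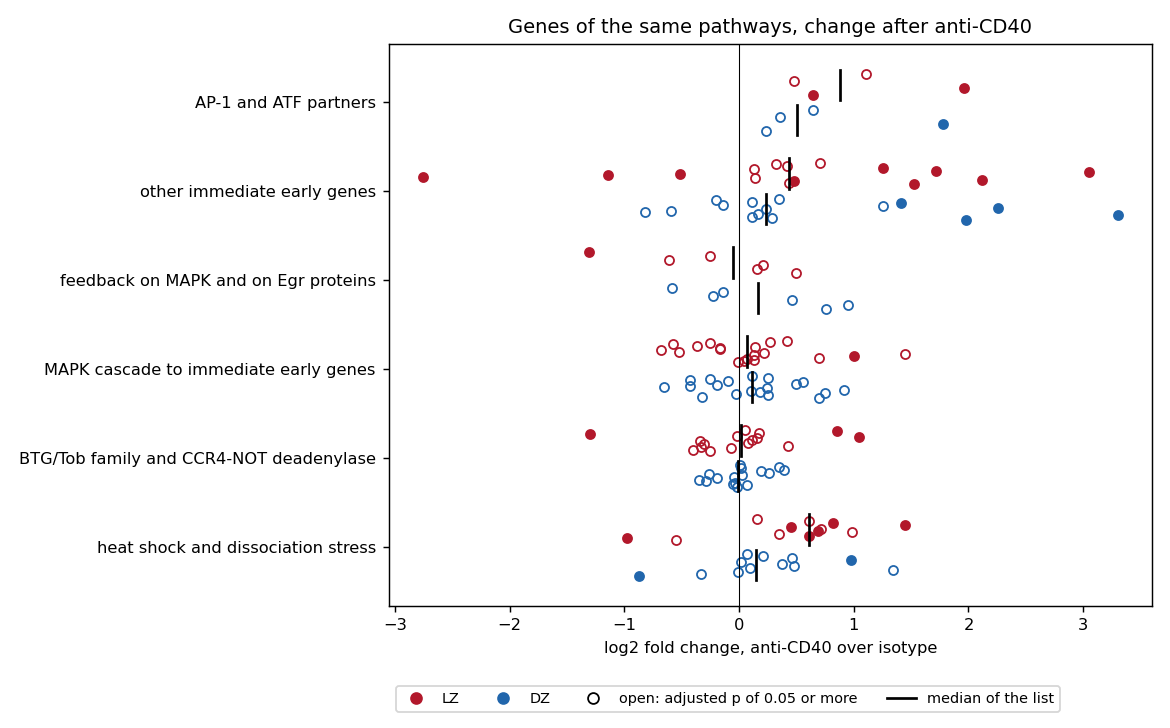
The log2 fold change of anti-CD40 over isotype for each tested gene of 6 pathway lists, in the LZ above and the DZ below for each list; filled points have an edgeR adjusted p under 0.05 and bars mark the list's median. Other immediate early genes spread from -2.75 to 3.05 in the LZ, while the BTG family and CCR4-NOT list has medians of 0.01 and -0.01.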

How the data were processed

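RNA was measured by 3′ end sequencing with molecular identifiers in 16 bulk libraries. Per the submitters' processing notes, cutadapt, STAR, HTSeq, DESeq2 and mm10 were used. The authors deposited raw UMI counts for 9443 genes, each reaching at least 6 UMI in some library, with 32 normalized or transformed per-sample columns that were not used here. Log2 fold changes and adjusted p-values of the authors' own comparisons are in the deposited table and are printed where named. Floors take 3 counts and cover counting error only.

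The deposited counts were tested with edgeR 4.0.16 (R 4.3.3): filterByExpr (minimum count 10) left 6824 genes with 98.6% of the UMI, scaled by TMM. The quasi-likelihood fit took all 16 libraries and a mean for each of 4 groups, with Benjamini-Hochberg adjustment over all tested genes and a threshold of 0.05. The script was tested on simulated data. Positions are from GENCODE vM21 (GRCm38, the same build as mm10), sequences from RefSeq. Alternatives were DESeq2 1.42.0, limma-voom 3.58.1, other scalings and filters, the groups compared alone, a replicate block and left-out libraries.

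The genes and lists were chosen with earlier results of these data known. All genes chosen by symbol were described. Of a pathway list, up to 4 genes with the smallest p that passed in a comparison were named. For heat shock genes in the LZ all that passed were named. The 2 nearest genes by RMS difference were named as well.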

Additional observations from a re-analysis of the deposited data

Results flagged for a closer look

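In 36 groups of 4 libraries, 9 genes in 4 groups, 2 held a library whose gap to the nearest other library was a large part of the group's range, where chance gives about 1 in 20. For Egr3 in anti-CD40 DZ the highest library was at 5.21 CPM and the others at 0 to 0.782 CPM, a gap of 0.850 of the range, on at most 8 UMI. For Dusp2 in anti-CD40 LZ the highest library was at 1110.2 CPM and the others at 1001 to 1016 CPM, a gap of 0.863 of a narrow range.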

How the results depend on the processing

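Junb in both zones, and Dusp2 and Btg2 in the LZ, kept their anti-CD40 calls and directions under each of the 25 alternatives. The count of called genes of interest, 5 in the LZ, was 3 with the groups compared alone and without the libraries numbered 4, where Nr4a1 had too few counts to be tested, and 3 to 6 with 1 library left out. In the DZ it was 2, and 1 without a filter or with the groups compared alone, and 1 to 3 with 1 library left out. Without the libraries numbered 4 the DZ count was 3, with Egr1 passing, and Egr1 also passed in the DZ by DESeq2. Between zones after anti-CD40 it was 5, then 2 without a filter and 3 with the groups alone, and 2 to 5 with 1 library left out. Between zones under isotype it was 1, then 3 by DESeq2, 0 without a filter, with the groups alone or without the libraries numbered 4, and 0 to 2 with 1 library left out. Over all genes the LZ count of 1302 ranged from 876 to 1361 with 1 library left out, the DZ count of 163 from 98 to 183, that between zones after anti-CD40 of 786 from 480 to 943, that between zones under isotype of 152 from 72 to 154, and that of the interaction of 1 from 0 to 2. The isotype zone count was 235 by DESeq2 and 101 with the groups alone. The interaction count was 24 by DESeq2, 2 with upper quartile factors and 0 without the libraries numbered 4. The cause of these shifts was not tested.

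The labels do not say what the replicate numbers stand for, so the main fit did not take the numbers as pairs. Not every same-numbered pair of libraries correlated above 0.1, and these correlations do not settle whether the numbers are pairs. Same-numbered libraries of different groups correlated in their deviations from -0.205 to 0.658, with a median of 0.348 and 18 of 24 pairs above 0.1. Differently numbered ones had a median of -0.0742 and 23 of 72 above 0.1, and 6 of 16 libraries matched their own number best in all 3 other groups. With a replicate block the counts over all genes were 2013 in the LZ, 427 in the DZ, 107 for the interaction, 1533 between zones after anti-CD40 and 433 between zones under isotype, where 5 genes of interest passed: Dusp2, Egr1, Ier2, Junb and Nr4a1. The block also let Ier2 pass in the LZ (0.62, adjusted p = 0.0347), Egr1 in the DZ (-0.98, adjusted p = 0.00426) and Jund between zones after anti-CD40 (-0.59, adjusted p = 0.0263), and ended no call. Reversals occurred in the interaction alone. Jund was at -0.012 with upper quartile factors and -0.22 without the libraries numbered 4, against 0.06. With 1 library left out Jund ranged from -0.28 to 0.20, Ier2 from -0.11 to 0.43, Junb from -0.081 to 0.24, Dusp2 from -0.16 to 0.052 and Egr1 from -0.038 to 0.38. Upper quartile factors put the median LZ change of all genes at -0.10 and the LZ split at 596 higher and 758 lower, beside 740 and 562. Depth limits Egr3, Fos and Nr4a1 most. Nr4a1 was not tested with the stricter filter, without the libraries numbered 4 or, except between zones under isotype, with the groups compared alone.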
